A study of Mus musculus with 64 samples.

Results

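Axon guidance ligands and receptors are the semaphorins and plexins, the Slits and Robos, the netrins and Unc5 receptors, and the ephrins and Eph receptors. Members were taken by gene symbol from the table of read counts, as every symbol made of Sema, Plxn, Epha, Ephb, Efna, Efnb, Ntn, Unc5, Robo or Slit followed only by digits or the letters a to d, with Sema5b left out. The rule took 60 of the 48795 genes in the table. Of these, 59 belong to the guidance families, and 1, Unc50, matches by spelling and is no Unc5 receptor. The pattern does not reach symbols that end in later letters, such as Sema3e or Ntng1, and these were followed as relatives.

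The 4 groups of C57BL/6 mice were wild type (WT), labelled Polq+/-, heterozygous knock-in of the Q140 allele, labelled Het (Q140) KI and called Q140 here, and the cross of both, Q140 X Polq+/-, whose Q140 allele is likewise heterozygous. Q140 is a mouse model of Huntington's disease that carries an expanded CAG repeat in the mouse Htt gene, and Polq encodes DNA polymerase theta, a repair polymerase. Each group held 8 mice of 6 months of age, 4 of each sex, and each mouse gave 1 striatum and 1 cortex library, which makes 64 libraries of bulk tissue. The Q140 allele is carried in the germ line.

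These families guide growing axons in development. Secreted or membrane-bound ligands bind receptors on the growth cone, and the receptors act on small GTPases and the actin cytoskeleton to attract or repel it. In the adult brain many of the same genes are still expressed and act at synapses, dendritic spines and blood vessels, and in striatum the ephrin and semaphorin families are known for sorting the inputs and outputs of spiny projection neurons, the main neurons of that tissue.

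Total counts per library ran from 28706673 to 40622382 in striatum and from 30888166 to 40107413 in cortex. Polq, the targeted gene, had 1.31 to 2.42 CPM (counts scaled to library size) in striatum of 12 mice labelled Polq+/-. It had 0.187 to 0.376 CPM in the other 4, and 2.24 to 4.08 CPM in the 16 mice without that label. So 4 of the 16 mice labelled Polq+/- stood apart. They were male 3 of the Polq+/- group, and females 3 and 4 and male 3 of the Q140 X Polq+/- group. Polq level was therefore not balanced between these groups, which are compared below for Q140. Htt was not called in striatum in either Q140 comparison, nor in the same comparisons in cortex. Over all Q140 carriers against all non-carriers in cortex, Htt was called lower, by 0.10 on the log2 scale. The level of Htt was 137 CPM in striatum of WT male 3 and 209 to 220 CPM in the other 7 WT mice. Summed spiny neuron markers were 3150 to 3700 FPKM (counts scaled by gene length and library size) in WT striatum and 75.7 to 83.4 FPKM in WT cortex, and 6 markers of cortical excitatory neurons summed to 0.672 to 6.45 FPKM in WT striatum and 359 to 377 FPKM in WT cortex. WT male 2 held the 6.45, together with summed cerebellar granule cell markers of 35.3 FPKM against a group median of 0.299, and the striatum of Polq+/- female 3 held choroid plexus markers at 1030 FPKM against a group median of 12.2.

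In WT mice, Efnb3 and Sema7a were the members of highest level in striatum on the per-length FPKM scale. Efnb3, a membrane-spanning ephrin that repels axons through EphA4 and EphB receptors, was at or above 58.3 FPKM in each WT striatum, with a median of 61.1. Sema7a, a lipid-anchored semaphorin that binds integrins and plexin C1, had a median of 45.2 FPKM there. Epha4 at 32.6 and Sema6b at 32.5 followed, and then Plxnd1 at 29.5 and Ephb6 at 25.1 FPKM. The Eph family gave a ligand and 2 receptors among these 6. At the other end, Epha1 had a median of 0.0504 FPKM and Ntn5 one of 0.0198 FPKM in WT striatum.

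The same families were distributed differently between the 2 tissues. Against WT cortex in a fit that kept the mouse as a block, 51 of 60 members passed the test (adjusted p under 0.05, edgeR quasi-likelihood test with Benjamini-Hochberg adjustment over all genes), 20 of them higher in striatum and 31 lower. Over all genes 77.2% were called in this comparison, 39.1% higher and 38.1% lower. The median log2 difference was -0.17 over the members and 0.02 over all genes. Striatum and cortex libraries sat in different plate columns, so tissue and plate column cannot be told apart here.

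Ephrins and Eph receptors lay on both sides of this comparison. Efnb3 was higher in striatum by 2.27 on the log2 scale (SE 0.043, adjusted p = 8.22e-34), with cortical levels of 10.2 to 13.8 FPKM. No WT mouse overlapped between the tissues. Ephb1, a receptor for B-class ephrins, had a median of 14.9 FPKM in striatum and 5.73 in cortex, a log2 difference of 1.39. Ephb2 and Ephb3, 2 close relatives, lay the other way, at 0.334 and 0.955 FPKM in striatum against 2.46 and 6.85 in cortex, with log2 differences of -2.82 and -2.85 that both passed the test. Among EphA receptors, Epha8 and Epha6 were higher in striatum by 1.19 and 0.97, and Epha10, which lacks a working kinase, had a log2 difference of -2.19. Efna5, an ephrin that repels axons in many maps, was 12.5 FPKM in cortex and 2.51 in striatum.

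Netrin-system, Slit and plexin members also differed between tissues. Ntn5, a secreted netrin relative, gave 610 to 850 counts per library in WT cortex and 0 to 5 in WT striatum, or 16 counts over the 8 striatal libraries. Sec1, which overlaps Ntn5 on the opposite strand, was at 1.31 FPKM in WT cortex, below the 9.65 of Ntn5. Unc5d, a receptor for netrins and FLRT proteins, was 8.67 FPKM in cortex and 0.766 in striatum. Plxna1, a receptor for secreted and class 6 semaphorins, was 19.9 and 3.28 FPKM. All 3 were higher in cortex, and their ranges over WT mice did not meet.

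Slits and Robos fell on different sides. Slit2, a secreted repellent, was lower in striatum (log2 difference -2.49; 0.337 against 1.83 FPKM), while Slit3, from the same family, was higher (1.05; 14.2 against 6.60 FPKM). Robo1, a Slit receptor, was higher in striatum by 1.23, at 11.8 against 4.93 FPKM. Unc5b and Plxnb3, a netrin receptor and a plexin of the oligodendrocyte lineage, were higher by 1.09 and 1.15. Of the 26 co-receptors and relatives 6 were higher in striatum and 16 lower, and of 43 intracellular effectors 14 were higher and 27 lower. Over all genes 39.1% were higher and 38.1% lower. Dcc, the attractive netrin receptor, was higher in striatum by 2.42, and Srgap1, a GTPase-activating protein of Robo signalling, by 3.56. Lingo1 and Dscam, 2 membrane proteins of neurons, had -2.58 and -2.27, and the effectors Mical2 and Rnd1 had -3.09 and -3.48. The plot of WT levels shows these members off the line of equal levels.

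**Figure D1:**
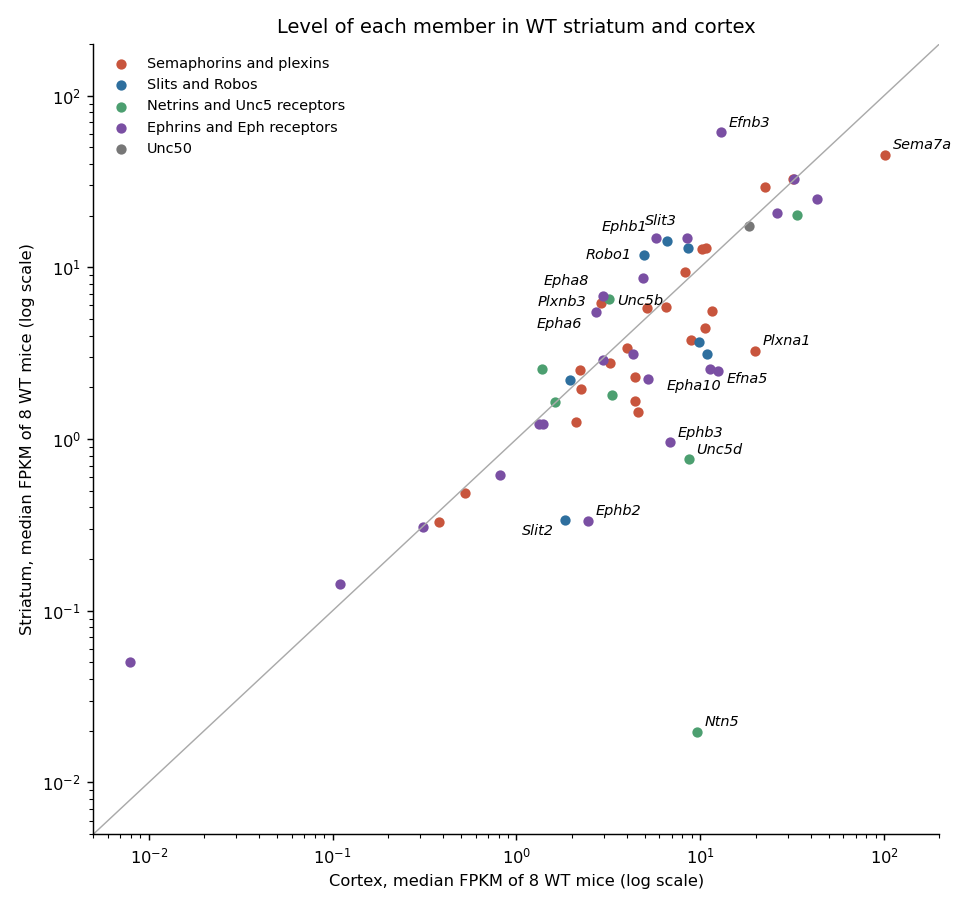
Median level of each of the 60 members in 8 WT mice, cortex on the horizontal axis and striatum on the vertical axis, both in FPKM on log scales, coloured by family, with the line marking equal levels. Efnb3 lies above the line at 61.1 FPKM in striatum, and Ntn5 lies far below it at 0.0198 FPKM in striatum and 9.65 in cortex.

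The Q140 allele was compared with its own control in striatum in 2 comparisons that share no library. Genotypes were not balanced over plate columns in either tissue. Column 1 held striatal and column 5 cortical libraries of WT mice, and neither held any of the Q140 group. With plate column in the fit, Q140 against WT striatum called 5335 of 18270 genes, against 5869 without it. In Q140 against WT mice, 25 of the 58 members tested were called, 16 higher and 9 lower, beside 32.1% of all genes called, 16.9% higher and 15.2% lower. In Q140 X Polq+/- against Polq+/- mice, 25 of 58 were again called, 14 higher and 11 lower, beside 31.4% of all genes, 16.1% higher and 15.3% lower. Efna4 and Ntn5 were not tested in striatum because of low counts. The median log2 fold change over the members was -0.00096 in the first comparison and 0.02 in the second, beside 0.0018 and 0.0051 over all genes. On the deposited FPKM scale, where the median over all genes stood 0.06 and 0.07 above 0, the split was 24 higher and 7 lower, and 23 higher and 7 lower, beside 39.2% of all genes called, 29.3% higher and 9.91% lower, and 39.9%, 30.3% higher and 9.63% lower. In the second comparison the fit without the 4 mice of lowest Polq called 18 members, 13 higher and 5 lower, beside 24.9% of all genes, 13% higher and 11.9% lower.

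The changes were modest in size. In Q140 against WT mice called members ranged from a fall by 30.5% to a rise of 36.1%, and in the second comparison from a fall by 24.9% to a rise of 36.0%. All 8 Q140 mice lay on the called side of the WT median for 20 of the 25 members, and for 23 of 25 in the second comparison. The members were called on these same mice, so this count is no separate evidence, and its share over all called genes was not taken. The groups did not overlap at all for 3 members in the first, Sema7a, Efnb3 and Robo1, and for 11 in the second, beside 8.25% and 11.5% of all genes tested that were called with no overlap. Of the members called, 18 were called in both comparisons, 72% of each list, 11 of them higher and 7 lower in both. Over all genes, 23.3% were called in both, which was 72.5% of the first list and 74.2% of the second, a share close to that of the members. Another 14 were each called in 1 comparison, and all 14 had the same sign in the other, as did 92.5% of all genes called in 1. The remaining 26 were called in neither.

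**Figure D2:**
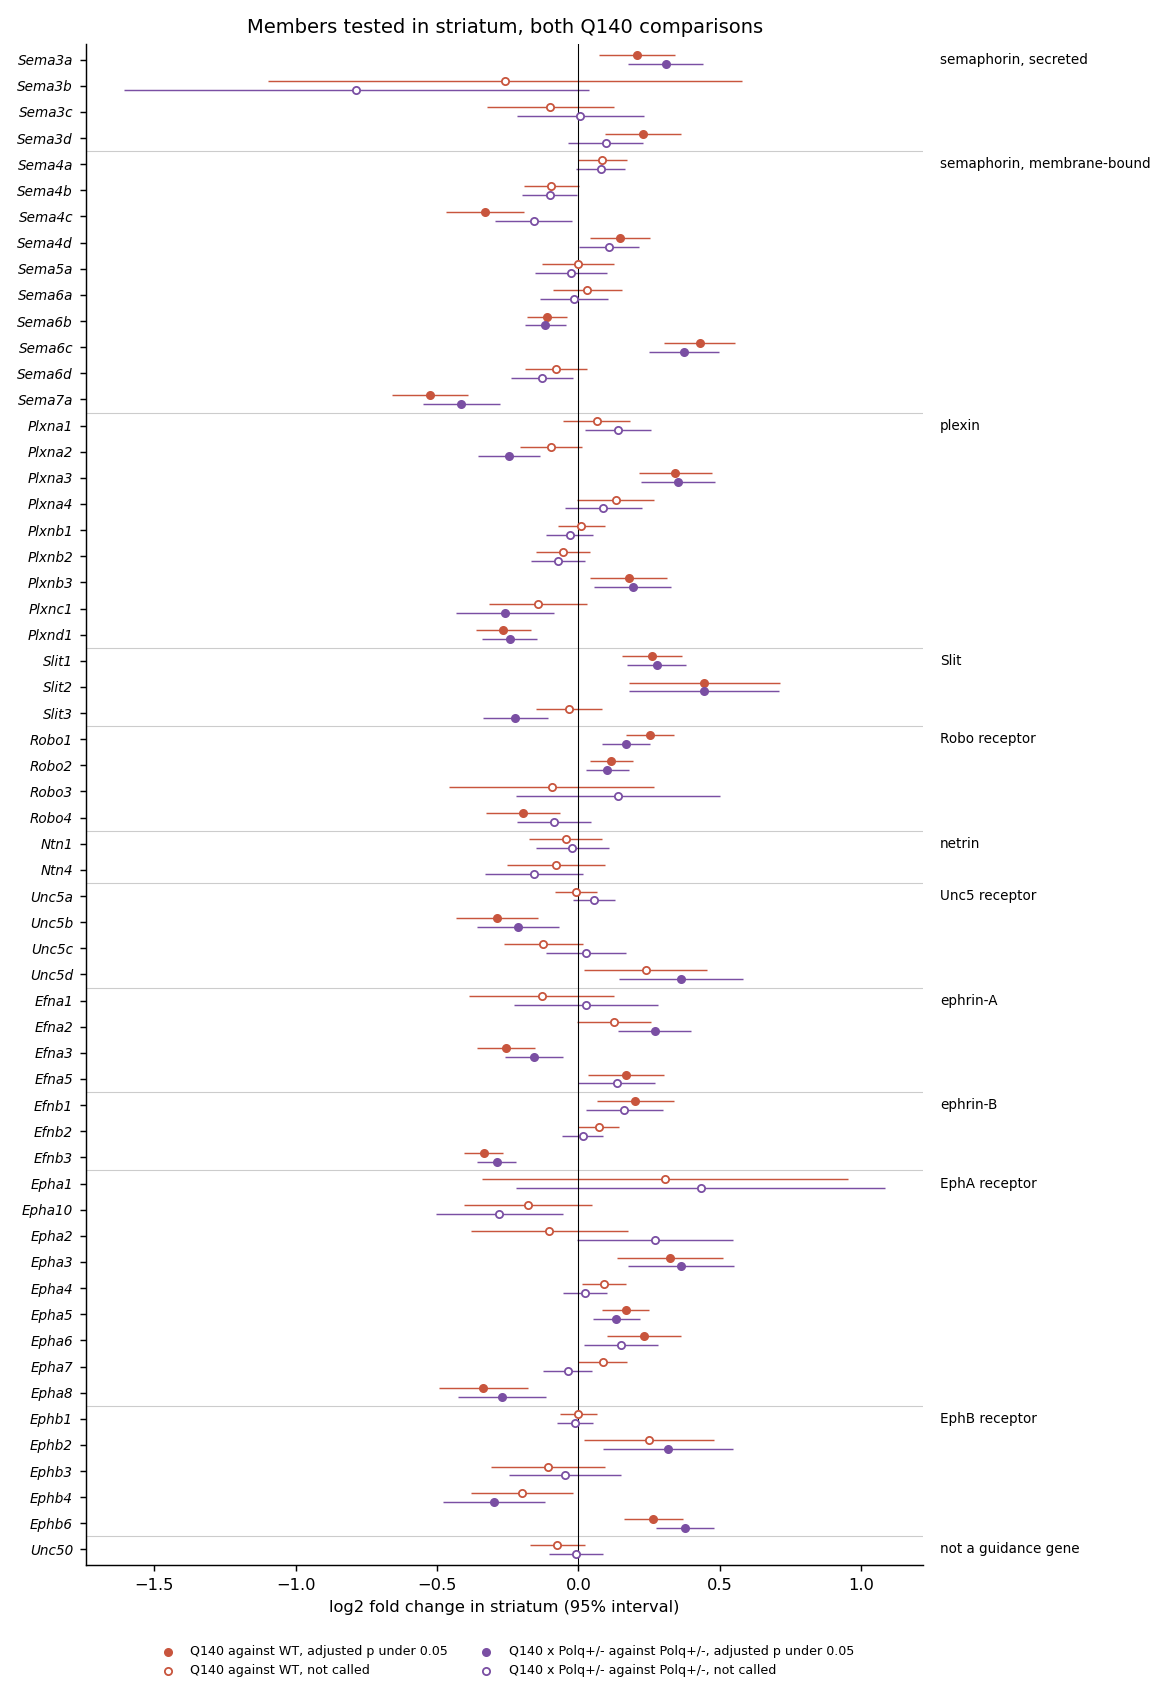
Log2 fold change in striatum with its 95% interval for the 58 members tested, by role, for Q140 against WT mice and for Q140 X Polq+/- against Polq+/- mice; filled points were called. Sema7a, Efnb3 and Epha8 lie below 0 in both comparisons and Slit2, Sema6c and Plxna3 above it, while netrins have no filled point.

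Among called members, Sema7a had the largest fall in both comparisons. It ran from 122 to 181 CPM in WT mice with a median of 153, and from 123.5 to 167 with a median of 141 in Polq+/- mice. It ran from 95.3 to 118 CPM with a median of 103 in Q140 mice, and from 98.3 to 118 with a median of 105 in Q140 X Polq+/- mice. Every Q140 carrier thus lay below every mouse without the allele. Sema7a fell by 0.52 on the log2 scale (SE 0.066, adjusted p = 1.75e-07) in Q140 mice and by 0.41 (SE 0.066, adjusted p = 9.24e-06) in Q140 X Polq+/- mice.

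Efnb3, the member of highest FPKM in WT striatum, fell too. It had 193 to 229 CPM in WT mice (median 199) and 197 to 206 in Polq+/- mice (median 201), against 152 to 167 in Q140 mice (median 160) and 145 to 178 in Q140 X Polq+/- mice (median 164). The carriers and the non-carriers did not overlap. The falls were by 0.33 (SE 0.034, adjusted p = 4.89e-10) and by 0.29 (SE 0.034, adjusted p = 1.39e-08). Epha8, an ephrin-A receptor, had 26.9 to 42.5 CPM in WT (median 32.9), 30.2 to 42.5 in Polq+/- (median 37.1), 24.3 to 30.3 in Q140 (median 26.1) and 24.7 to 36.5 in Q140 X Polq+/- mice (median 30.1). Here the groups overlapped, and all 8 mice of each carrier group lay below the median of their controls. Epha8 fell by 0.34 (adjusted p = 0.000958) and by 0.27 (adjusted p = 0.00636); without the 4 mice of lowest Polq the second value was -0.25 (adjusted p = 0.0517).

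Slit2, Sema6c and Plxna3 rose. Slit2 had 6.68 to 10.8 CPM in WT (median 8.66), 6.96 to 11.6 in Polq+/- (median 8.54), 9.06 to 15.0 in Q140 (median 11.5) and 9.42 to 14.1 in Q140 X Polq+/- mice (median 12.2). These counts were low and the groups overlapped. The rises were 0.45 (SE 0.13, adjusted p = 0.00839) and 0.44 (SE 0.13, adjusted p = 0.00838), and the second was 0.42 (adjusted p = 0.0583) without the 4 mice of lowest Polq.

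Sema6c, a membrane-spanning class 6 semaphorin, had 8.03 to 10.8 CPM in WT (median 8.74), 8.14 to 11.0 in Polq+/- (median 9.42), 10.8 to 12.8 in Q140 (median 11.9) and 10.8 to 13.7 in Q140 X Polq+/- mice (median 12.4). The WT range met the Q140 range through 1 mouse, WT male 2. Sema6c rose by 0.43 (SE 0.062, adjusted p = 8.39e-07) and by 0.37 (SE 0.061, adjusted p = 8.01e-06). Plxna3, a plexin that signals for secreted semaphorins together with neuropilins, had 14.5 to 21.5 CPM in WT (median 18.6), 15.6 to 20.9 in Polq+/- (median 17.2), 21.4 to 24.7 in Q140 (median 23.0) and 20.5 to 24.2 in Q140 X Polq+/- mice (median 22.7). Its ranges met only at their edges, and it rose by 0.34 (adjusted p = 5.51e-05) and by 0.35 (adjusted p = 3.69e-05).

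**Figure D3:**
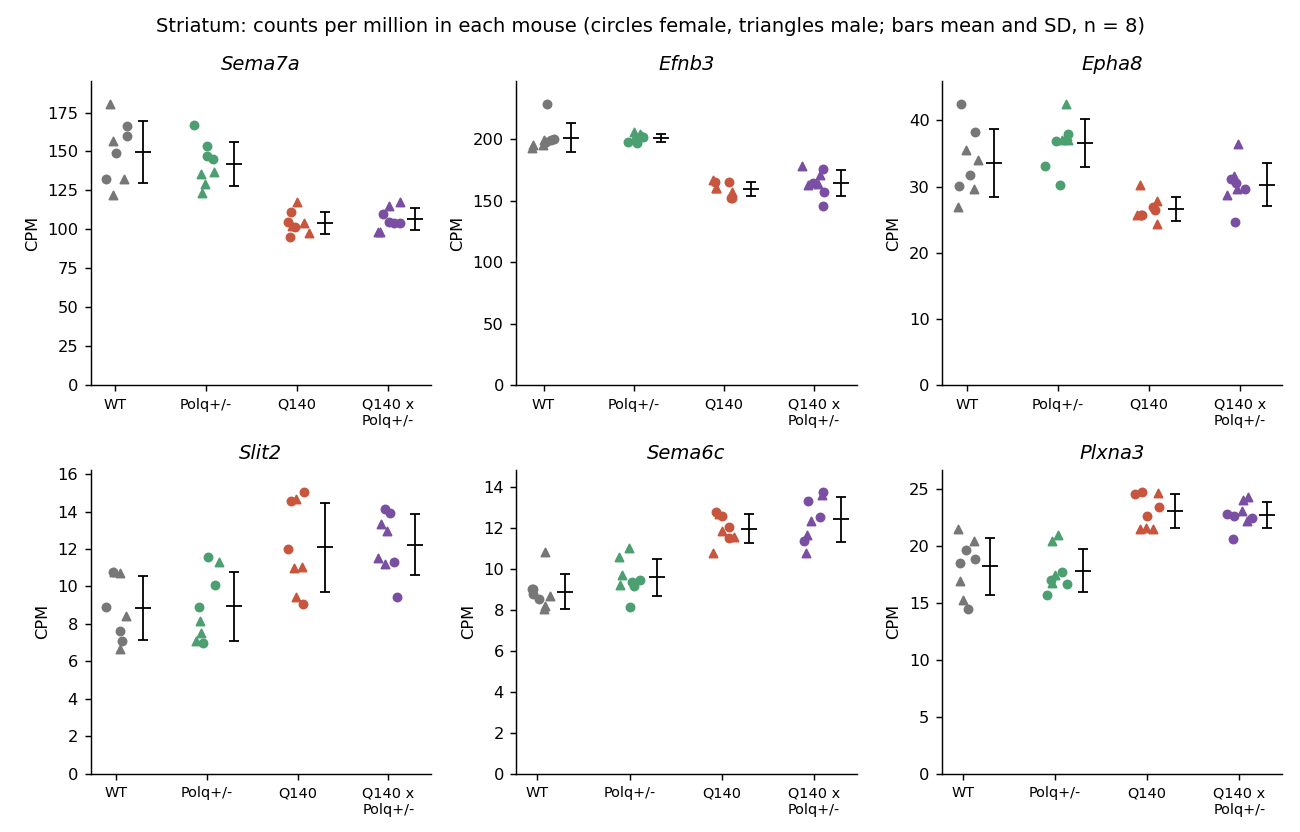
CPM in striatum for the 6 members with the largest called change in Q140 against WT mice, by genotype, each point a mouse (circles female, triangles male), bars mean and SD, n = 8 per group. Sema7a and Efnb3 do not overlap between carriers and non-carriers, Sema6c and Plxna3 overlap near the edges of their ranges, and Slit2 and Epha8 overlap more widely.

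The bases just upstream of the start of 4 of these 6 genes are shown as the sequence next to members that moved most, and whether they regulate these genes was not tested. They are RefSeq windows on GRCm38.p6 of 250 bases ending at the base before the start, 5′ to 3′ on the strand of the gene; Sema6c has 2 starts in the table, and Efnb3 is not in it. Capitals mark GGGGCGGGG, a GC box, or GCGNGGGCG, the binding letters of EGR factors, on either strand; the 2 motifs do not overlap in these windows.
Slit2, chr5:47982905-47983154, + strand: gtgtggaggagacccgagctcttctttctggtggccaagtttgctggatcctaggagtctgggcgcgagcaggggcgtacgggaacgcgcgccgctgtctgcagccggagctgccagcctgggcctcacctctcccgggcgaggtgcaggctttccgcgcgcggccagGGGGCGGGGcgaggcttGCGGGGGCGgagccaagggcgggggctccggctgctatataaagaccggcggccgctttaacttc
Plxna3, chrX:74328816-74329065, + strand: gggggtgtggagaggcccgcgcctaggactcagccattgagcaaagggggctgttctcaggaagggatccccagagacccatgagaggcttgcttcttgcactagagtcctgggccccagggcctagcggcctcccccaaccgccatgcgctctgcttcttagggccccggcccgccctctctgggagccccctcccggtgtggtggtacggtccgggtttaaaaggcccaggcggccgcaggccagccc
Sema7a, chr9:57939862-57940111, + strand: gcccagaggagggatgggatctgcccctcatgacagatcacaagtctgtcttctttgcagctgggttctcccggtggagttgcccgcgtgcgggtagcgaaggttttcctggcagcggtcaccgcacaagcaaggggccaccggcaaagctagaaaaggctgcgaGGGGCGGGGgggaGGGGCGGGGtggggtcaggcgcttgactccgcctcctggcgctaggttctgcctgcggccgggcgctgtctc
Epha8, chr4:136956817-136957066, - strand: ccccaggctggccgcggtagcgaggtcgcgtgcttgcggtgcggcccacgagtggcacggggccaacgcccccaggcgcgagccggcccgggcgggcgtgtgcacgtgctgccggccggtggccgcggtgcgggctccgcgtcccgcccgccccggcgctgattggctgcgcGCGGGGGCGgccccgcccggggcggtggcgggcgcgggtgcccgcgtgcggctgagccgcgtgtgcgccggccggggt
Slit2 held 1 of each, Sema7a held 2 GC boxes, Epha8 held 1 EGR match and Plxna3 held neither. The 2 Sema6c windows, not shown, held neither motif and had 15 and 0 CpG. CpG counts were 25 for Slit2, 17 for Sema7a, 46 for Epha8 and 12 for Plxna3, in a GC content of 69.6%, 66.4%, 84% and 68%. Of 32851 windows of the same length, 4.7% held the EGR letters and 10.4% the GC box, and TGACGTCA, the cyclic AMP response element also searched, was in 1.55%. Of the 68 windows of the 52 members in the table, 16.2% held the EGR letters, 25% the GC box and 1.47% the response element, with a median GC content of 64.4% against 52.4% over all windows.

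Semaphorins and plexins moved both ways. Among secreted semaphorins, Sema3a, a repellent that acts through neuropilin and plexin A receptors, rose in both comparisons by 0.21 and 0.31, and Sema3d rose in the first by 0.23. The Sema3a call of the first comparison was lost when WT males 2 and 3 and Polq+/- female 3 were left out. Sema3b, with -0.26 and -0.79 (adjusted p = 0.684 and 0.144), and Sema3c were not called. Among the 10 membrane-bound semaphorins, Sema4c, a plexin B2 ligand, fell by 0.33 in the first and had -0.16 in the second (adjusted p = 0.0714), and Sema6b fell by 0.11 and 0.12, the former not called on the FPKM scale. Sema4d, a ligand of plexin B1, rose in the first by 0.15. Of the 9 plexins, 3 were called in the first comparison and 5 in the second, beside 32.1% and 31.4% of all genes. Plxnd1, a receptor of Sema3e, fell by 0.27 and 0.24. Plxnb3 rose by 0.18 and 0.19. Of the 6 oligodendrocyte markers 3 fell and none rose in each comparison, and of 3 oligodendrocyte precursor markers 0 were called in either. The part of these markers in the Plxnb3 result was not tested. Plxnc1, the Sema7a receptor, had -0.14 in the first (adjusted p = 0.212) and fell by 0.26 in the second, a call lost under 5 of 12 alternatives, and Plxna2 had -0.10 (adjusted p = 0.17) and fell by 0.25.

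Of the 3 Slits and 4 Robos together, 4 were called higher and 1 lower in each comparison, beside 16.9% of all genes higher and 15.2% lower in the first and 16.1% and 15.3% in the second. Slit1 rose by 0.26 and 0.28, with 16.98 to 23.95 CPM in WT and 23.8 to 28.6 in Q140 mice. Robo1 and Robo2, the neuronal Slit receptors, rose by 0.25 and 0.17 and by 0.12 and 0.10. Robo1 ran from 68.7 to 99.1 CPM in WT mice and from 101.5 to 111 in Q140 mice, with no overlap. Robo4, the endothelial member of the family, fell by 0.20 in the first comparison and had -0.09 in the second (adjusted p = 0.341); the call was lost on the FPKM scale and with the plate column in the fit. All 5 endothelial markers fell beside it in the first comparison and 3 of 5 in the second, and their summed level was 25.4 to 32.6 FPKM in WT and 21.3 to 26.5 FPKM in Q140 mice; of 4 mural cell markers 3 fell in the first and 1 in the second, with summed levels of 34.3 to 41.1 FPKM in WT and 26.4 to 33.4 FPKM in Q140 mice. The part of these markers in the Robo4 result was not tested. Slit3 had -0.03 (adjusted p = 0.706) in the first and fell by 0.22 in the second.

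Netrins were not called, and Unc5 receptors differed among themselves. Ntn1, which attracts or repels axons through Dcc and Unc5 receptors, and Ntn4 had -0.05 and -0.08 in the first comparison (adjusted p = 0.642 and 0.531). Unc5b fell by 0.29 and 0.21, and the second call was lost on the FPKM scale, without the low-count filter and without the 4 mice of lowest Polq. Unc5d had 0.24 in the first (adjusted p = 0.0889) and rose by 0.36 in the second, and Unc5a and Unc5c were not called in either.

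In the Eph system, receptors moved both ways. Epha3 rose by 0.32 and 0.36, Epha5 by 0.17 and 0.13, and Epha6 by 0.23 in the first comparison with 0.15 in the second (adjusted p = 0.0725). Ephb6, a receptor with no active kinase, rose by 0.27 and 0.38, from 76.2 to 113 CPM in WT mice to 107 to 126 in Q140 mice. Ephb2 had 0.25 in the first (adjusted p = 0.0899) and rose by 0.32 in the second, and Ephb4, a venous endothelial receptor, had -0.20 (adjusted p = 0.0848) and fell by 0.30, a call lost without the 4 mice of lowest Polq. Endothelial summed levels were 21.2 to 31.2 FPKM in Polq+/- and 20.9 to 25.8 in Q140 X Polq+/- mice. Mural summed levels were 32.7 to 40.6 FPKM in Polq+/- and 30.9 to 34.9 in Q140 X Polq+/- mice. The part of both marker sets in the Ephb4 result was not tested. Of the A-class ephrins, Efna3 fell by 0.26 and 0.16, the second not called on the FPKM scale or without the 4 mice of lowest Polq, Efna5 rose in the first by 0.17, and Efna2 rose in the second by 0.27. Efnb1, a B-class ephrin, rose in the first by 0.20.

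Spiny neuron markers fell in the same libraries, while the members moved both ways. Of 9 markers, 8 fell and none rose in Q140 against WT mice, and 8 fell and 1 rose in the second comparison, with summed levels of 3150 to 3700 FPKM in WT, 1940 to 2190 in Q140, 3240 to 3410 in Polq+/- and 2010 to 2160 in Q140 X Polq+/- mice. In bulk tissue fewer cells of a type and less RNA per cell cannot be told apart, and the part of these markers in the member results was not tested. Of 5 microglial markers, 4 fell in the first comparison and 0 in the second.

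The co-receptors and effectors of these families also moved both ways. Of 26 co-receptors and relatives, 8 rose and 3 fell in each comparison, or 42.3% beside 32.1% and 31.4% of all genes, with medians of 0.07 and 0.03; 6 rose and 1 fell in both. Chl1, a cell adhesion partner of semaphorin receptors, rose by 0.29 and 0.28, and Cntn1 by 0.15 and 0.11. Flrt2 rose by 0.27 in the first. Nrp1, a co-receptor of Sema3a, fell by 0.27 in the first, and Flrt3, an Unc5 ligand, fell by 0.13 and 0.20. Sema3f fell in the first by 0.16, and Sema3g fell in the second by 0.29, as did the adhesion protein L1cam by 0.11, while Sema4f rose there by 0.14. Of 43 intracellular effectors, 11 rose and 9 fell in each comparison, or 46.5%, and 10 rose and 7 fell in both. Vav3 rose by 0.64 and 0.60, Dpysl3, a CRMP protein of semaphorin signalling, by 0.55 and 0.50, and Enah, an actin regulator, by 0.40 and 0.32. Ngef, an ephexin that acts downstream of EphA receptors, fell by 0.44 in each comparison, and Kalrn, an exchange factor of dendritic spines, by 0.26 and 0.40.

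Differences with the Polq label were not called for any member by edgeR. In striatum, Polq+/- against WT and Q140 X Polq+/- against Q140 mice called 0 of 58 members each by edgeR and by DESeq2, beside 0.0493% and 0.0547% of all genes. At an unadjusted p under 0.05 there were 4 and 2 of 58, beside 924 and 611 of the 18270 genes tested. The difference between the 2 Q140 comparisons, tested as an interaction, called 0 of 58 (0% of all genes), and 0 by DESeq2. Under 0.05 unadjusted there were 2, Epha7 and Slit3, beside 893 of 18270 genes. For Sema7a the interaction was 0.11 with a 95% interval of -0.08 to 0.30, and for Slit2 it was -0.0011 with an interval of -0.38 to 0.37, so the interval for Slit2 spans sizeable differences in either direction. In cortex the same 3 comparisons called 0 of 58 by edgeR, beside 0.0442%, 0.0552% and 0% of all genes. Under 0.05 unadjusted there were 4, 5 and 1, beside 841, 1136 and 863 of 18116 genes.

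Epha3 was the 1 member that DESeq2 called in cortex between Q140 X Polq+/- and Q140 mice. It lies on chromosome 16, 26.4 Mb from Polq. Its cortical level was 3.84 to 5.88 CPM in WT (median 4.63), 4.58 to 7.09 in Polq+/- (median 5.73), 3.60 to 5.70 in Q140 (median 4.41) and 5.06 to 8.05 in Q140 X Polq+/- mice (median 5.95). The groups overlapped. The log2 differences with the label were 0.31 (adjusted p = 0.999) and 0.45 (adjusted p = 0.105 by edgeR, 0.0158 by DESeq2), and in striatum they were -0.05 and -0.0060. Ephb3, Epha6, Robo1 and Robo2 lie on the same chromosome, at 15.8, 22.6, 35.2 and 36.8 Mb from Polq, and Slit2, Sema3c, Sema3a, Sema3d, Epha5 and Ephb4 lie on chromosome 5 with Htt, at 13.1 to 102.4 Mb.

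In cortex few members changed with Q140, and Epha1 and Efna4 were not tested because of low counts. Q140 against WT mice called 1 of 58, Plxnb3, beside 0.348% of all genes, and Q140 X Polq+/- against Polq+/- mice called 1 of 58, Sema7a, beside 0.337%. With all 16 carriers against all 16 non-carriers, 5 of 58 were called, 2 higher and 3 lower, beside 2.46% of all genes, 0.85% higher and 1.61% lower. This comparison reuses the libraries of the other 2.

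Among called members Sema7a had the largest fall in cortex too. It had 321 to 365 CPM in WT cortex (median 338), 299.5 to 365 in Polq+/- (median 344), 275 to 330 in Q140 (median 307) and 272 to 304 in Q140 X Polq+/- mice (median 295). All 8 mice of each carrier group lay below the median of their controls, and the ranges overlapped. It fell by 0.19 over all carriers (SE 0.026, adjusted p = 3.71e-05), by 0.22 in Q140 X Polq+/- mice (adjusted p = 0.00243), and had -0.15 in Q140 mice (adjusted p = 0.0626). That last value was called by DESeq2 (adjusted p = 0.0162) and by edgeR with only the groups compared (adjusted p = 0.0241). The other alternatives did not call it.

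Plxnb3 had 17.1 to 19.5 CPM in WT cortex (median 18.8) and 17.1 to 19.7 in Polq+/- mice (median 19.0), against 19.3 to 22.8 in Q140 (median 20.8) and 18.4 to 21.1 in Q140 X Polq+/- mice (median 19.5). It rose by 0.18 in Q140 mice (SE 0.040, adjusted p = 0.0238) and by 0.12 over all carriers (adjusted p = 0.0086), and had 0.07 in the second comparison (adjusted p = 0.558). The Q140 call of Plxnb3 did not hold with the plate column in the fit, where 0 members were called, or with only the groups compared (adjusted p = 0.0609), and its call over all carriers was lost with the plate column (adjusted p = 0.0579). Efnb2, a B-class ephrin, had 53.5 to 64.5 CPM in WT (median 58.8), 54.8 to 65.0 in Polq+/- (median 58.1), 58.6 to 70.7 in Q140 (median 63.1) and 61.1 to 73.9 in Q140 X Polq+/- mice (median 65.3), and its groups overlapped. It rose by 0.13 over all carriers (adjusted p = 0.00577).

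Unc5b and Sema4a fell over all carriers, by 0.15 (adjusted p = 0.038) and 0.12 (adjusted p = 0.0311). Unc5b had 16.7 to 20.01 CPM in WT (median 18.7), 16.2 to 21.8 in Polq+/- (median 19.6), 15.1 to 19.3 in Q140 (median 16.6) and 15.2 to 19.3 in Q140 X Polq+/- mice (median 16.5). Sema4a, a ligand of plexins B and D, had 54.9 to 68.1 CPM in WT (median 62.8), 55.6 to 65.6 in Polq+/- (median 60.2), 48.7 to 63.0 in Q140 (median 55.8) and 53.3 to 58.9 in Q140 X Polq+/- mice (median 56.2). The ranges of both genes overlapped between carriers and non-carriers. Both calls were lost on the FPKM scale, that of Unc5b also with the plate column and that of Sema4a without the low-count filter. Without the 4 mice of lowest Polq, 2 of these 5 were called, Efnb2 and Sema7a, beside 1.43% of all genes, 0.447% higher and 0.987% lower. Over all carriers with every mouse kept, 1 of 26 co-receptors and relatives was called, beside 2.46% of all genes. This was Lingo1, a Nogo receptor partner, which fell by 0.25. Of the 43 effectors 5 were called in the same fit, 2 higher and 3 lower, beside 0.85% of all genes higher and 1.61% lower. Dpysl5 and Dpysl3 rose by 0.17 and 0.13, and Ngef and Mical2 fell by 0.09 and 0.18.

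**Figure D4:**
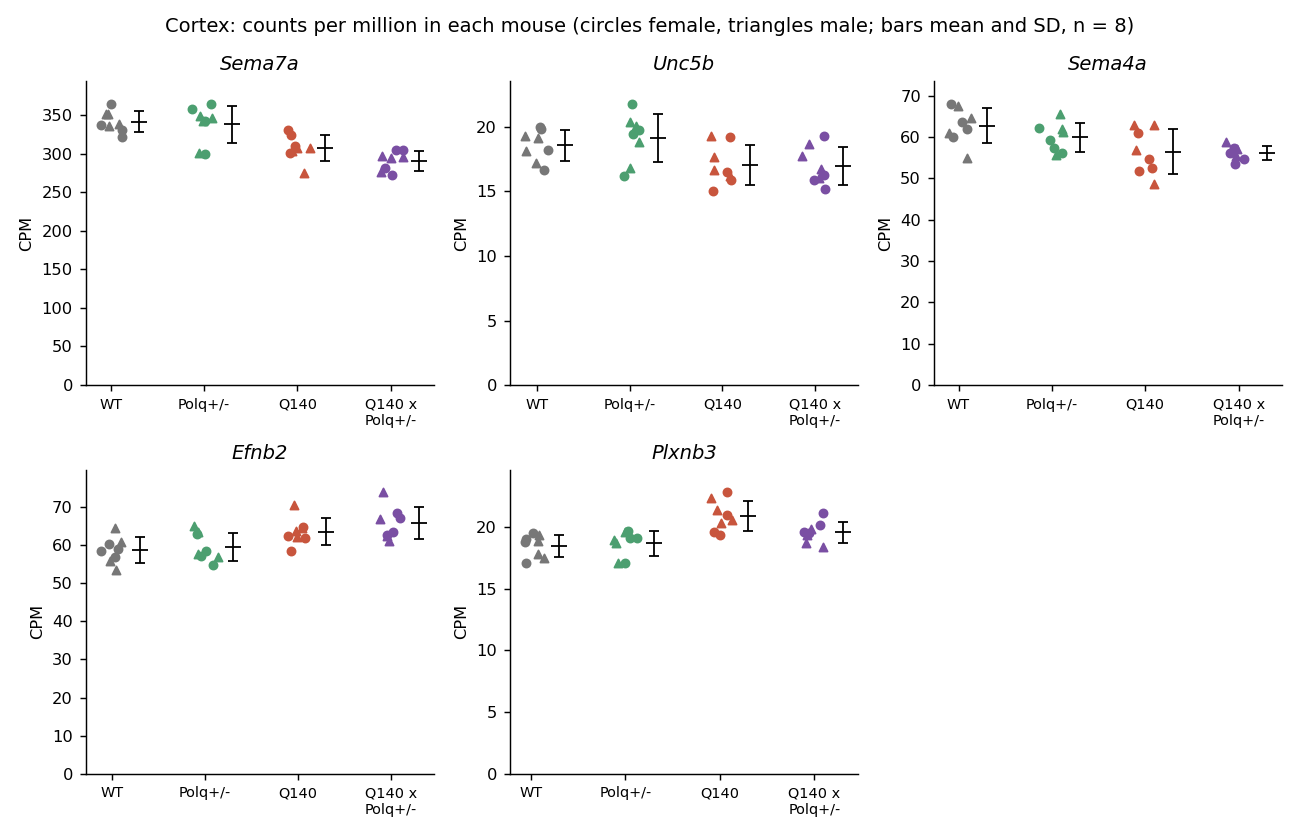
CPM in cortex for the 5 members called over all Q140 carriers, by genotype, each point a mouse (circles female, triangles male), bars mean and SD, n = 8 per group. The medians of Sema7a, Unc5b and Sema4a are lower in both carrier groups and those of Efnb2 and Plxnb3 higher, with overlapping points.

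The effect of Q140 differed between the tissues for 29 of 60 members, 16 more positive in striatum and 13 more negative, beside 32% of all genes, 15.7% and 16.3%. On the FPKM scale the split was 19 and 9, beside 38.5% of all genes called, 27.7% and 10.8%. The test compared the mean of both Q140 effects on the difference between a mouse's 2 tissues. Slit2 had the largest positive difference, 0.50 (SE 0.11, adjusted p = 0.000367), then Unc5d at 0.38, Sema6c at 0.35 and Epha3 at 0.33. Efnb3 had the largest negative one among called members, -0.40 (SE 0.042, adjusted p = 6.74e-10), then Epha8 at -0.39. Sema7a, called lower in both tissues, had a difference of -0.29 (adjusted p = 0.000106).

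Of the 18 members called in both striatal comparisons, 15 were among those 29, and Plxnb3, Robo2 and Unc5b were not. Another 5, Efnb2, Ntn4, Plxna4, Sema4a and Sema4b, were called for the tissue difference and in neither striatal comparison. Efnb2 and Sema4a were called in cortex, as above, with 0.07 and 0.08 in striatum of Q140 mice. The plot of these differences shows the 29 members in order.

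**Figure D5:**
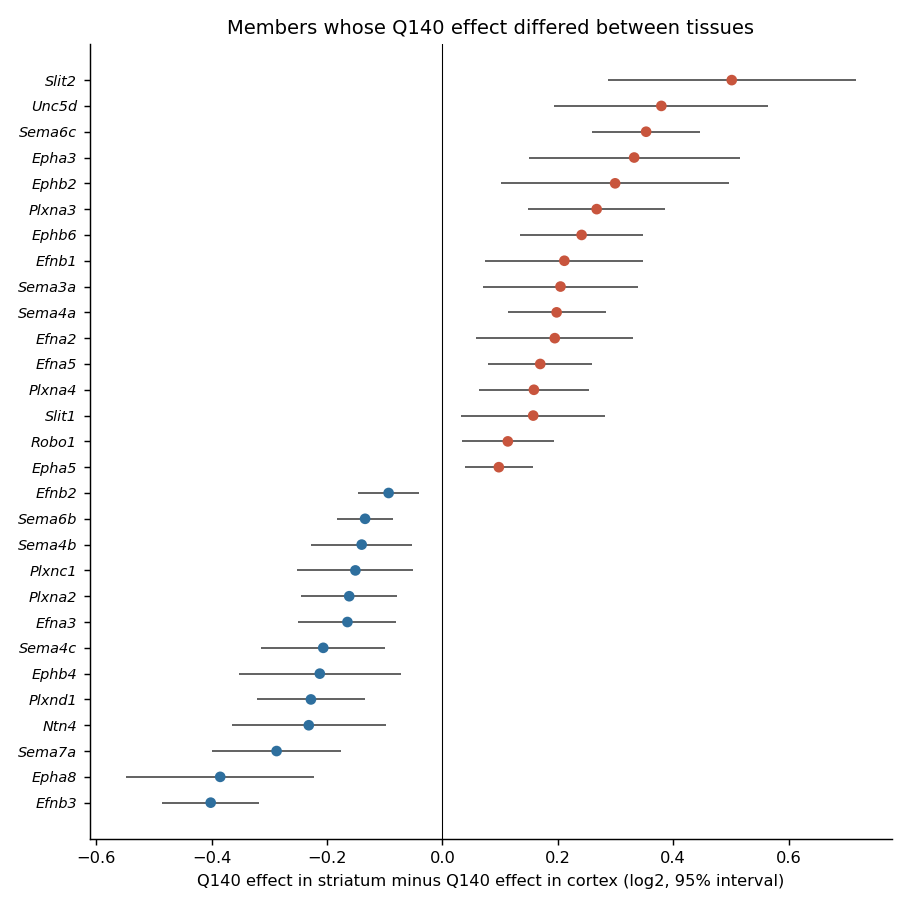
Q140 effect in striatum minus Q140 effect in cortex for the 29 members called, log2 scale, with 95% intervals. Slit2 stands at 0.50 at the top and Efnb3 at -0.40 at the bottom.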

How the data were processed

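Read counts per gene and FPKM values for 64 libraries were deposited by the authors; per the labels' protocols, RNA was extracted with a Qiagen RNeasy kit and libraries were made with the Illumina TruSeq stranded protocol. The extraction text speaks of striatal tissue, while the sample labels name cortex as well. Per the submitters' processing notes, STAR 2.7.5c, SAMtools 1.10 and HTSeq 0.12.3 and the GRCm38 (mm10) build were used; no source used here says whether counting used strand, and antisense partners could then share reads. The deposited FPKM values equal the counts rescaled per gene and library (15456 genes checked, relative spread of 4.2e-10). Gene names that had turned into dates were replaced for 27 genes from GENCODE, where 48349 of the 48795 identifiers were found.

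Counts were tested with edgeR 4.0.16 (R 4.3.3): TMM scaling, filterByExpr by genotype, robust quasi-likelihood test with genotype and sex over the 32 libraries of a tissue, and for differences between tissues a block for each mouse over all 64 libraries. P-values were adjusted by Benjamini-Hochberg over all genes, and an adjusted p under 0.05 is a call. CPM uses TMM library sizes. The standard error is the absolute log2 fold change over the square root of F, and intervals are 95%. The mice are separate animals. Every member was counted. In a striatal comparison the 10 largest called changes each way were to be named with values among members of at least 1 CPM, all called members where there were 20 or fewer, 8 each way between tissues and 3 each way from companion lists; the 6 largest in striatum and those called in cortex have values by group. A gene from the effector list that this rule would name is not reported here. Members named beyond that were chosen after their values were seen. Members, lists and motifs were chosen with earlier results of these data known. Alternatives were DESeq2 1.42.0, its size factors in edgeR, limma 3.58.1 on log2 FPKM with pseudocounts of 0.1 and 1, no low-count filter, no sex term, plate column, a replicate block, only the groups compared, and libraries left out. The fits were tested on simulated data; the simulated effect sizes and the pass mark were reset after earlier versions of that test fell short of theirs.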

Additional observations from a re-analysis of the deposited data

Results flagged for a closer look

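Among 44 groups of 8 mice tested for a sample apart from the rest, 2 held one, where chance gives about 1 in 20. Sema6c in striatum of WT male 2 was at 10.8 CPM, and the other 7 WT mice lay between 8.03 and 9.02 CPM. The same library held summed cerebellar granule cell markers of 35.3 FPKM, and their part in the Sema6c value was not tested. Efnb3 in striatum of WT female 1 was at 229 CPM, against 193 to 200 CPM in the other 7.

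The Q140 effect differed between striatum and cortex for 29 members in the edgeR fit over both tissues. Among ephrins the log2 differences (striatum minus cortex) were 0.19 for Efna2, -0.16 for Efna3, 0.17 for Efna5, 0.21 for Efnb1, -0.09 for Efnb2 and -0.40 for Efnb3. Among Eph receptors they were 0.33 for Epha3, 0.10 for Epha5, -0.39 for Epha8, 0.30 for Ephb2, -0.21 for Ephb4 and 0.24 for Ephb6. Among semaphorins they were 0.20 for Sema3a, 0.20 for Sema4a, -0.14 for Sema4b, -0.21 for Sema4c, -0.13 for Sema6b, 0.35 for Sema6c and -0.29 for Sema7a. Among plexins they were -0.16 for Plxna2, 0.27 for Plxna3, 0.16 for Plxna4, -0.15 for Plxnc1 and -0.23 for Plxnd1. The Slit and netrin systems gave 0.16 for Slit1, 0.50 for Slit2, 0.11 for Robo1, -0.23 for Ntn4 and 0.38 for Unc5d.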

How the results depend on the processing

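No named member changed sign in any alternative run, and of 693 values recomputed for named members 655 stayed on their side of the threshold while 38 lost their call. In Q140 against WT striatum 16 of the 19 named members were called under all 11 alternatives; Robo4, Sema3a and Sema6b were not. In Q140 X Polq+/- against Polq+/- striatum 14 of 20 were called under all 12; Efna3, Epha8, Ephb4, Plxnc1, Slit2 and Unc5b were not, and all 6 were lost without the 4 mice of lowest Polq. Total counts of called members that moved by over 1.5 times were small ones in cortex. In striatum the counts by direction moved more. On the FPKM scale 14 higher and 11 lower became 23 and 7 in the second comparison. Over all genes 2943 higher and 2798 lower became 5530 and 1759. Without the 4 mice of lowest Polq 11 lower became 5, while over all genes 2798 lower became 2203. For Q140 against WT in cortex, where 1 member was called, DESeq2 called 2, the replicate block 2 and the plate column 0. Over all genes these 3 called 156 of 14603, 74 of 18116 and 25 of 18116, against 63 of 18116. For Q140 X Polq+/- against Polq+/- in cortex the plate column gave 2, against 1, and over all genes 35, against 61. For Q140 X Polq+/- against Q140 in cortex, DESeq2 called 1, against 0, and over all genes 16, against 10. Over all carriers, 5 became 3 with the plate column and 2 without the 4 mice of lowest Polq, while over all genes 446 became 266 and 263. The cause was not tested, and the last of these fits also held fewer mice.

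Replicate numbers did not pair the mice: deviations from genotype and sex means of same-numbered mice had a median correlation of 0.0152 in striatum and 0.0173 in cortex, with 7 and 6 of 48 pairs over 0.1. The replicate block called 26 members in both striatal Q140 comparisons, against 25, and over all genes 5878 and 5738, against 5869 and 5741. Without WT male 3 the Q140 against WT comparison called 25 members, beside 6202 of 18342 genes. With WT male 2, WT male 3 and Polq+/- female 3 left out it called 26, beside 6125 of 18367 genes. The standard error in Q140 against WT striatum was 0.32 for Epha1 and 0.066 for Sema7a. Efna4 was not tested within a tissue.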
